A study of Mus musculus with 96 samples.

Results

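The Tdpoz and Usp17l genes are 2 families of related gene copies, and 5 of each were followed here in single mouse oocytes and embryos. Members were found by symbol, as Tdpoz1 to Tdpoz5 and Usp17la to Usp17le, and the families were picked with earlier results of these data known. They make up 10 of the 55401 genes in the count table. All embryos were untreated C57BL/6J embryos from C57BL/6J females superovulated with PMSG and, 46 h later, hCG, and mated within the strain. Embryos were taken every 2 h from 0 h, which was 12 h after hCG, to 24 h, and again at 36 h, and oocytes and morulae were added from separate batches. Each of the 96 libraries was made from 1 oocyte or embryo with SMART-Seq v4, which primes cDNA on poly(A) tails. The groups held 8 oocytes and 7 morulae, 5 embryos for each of 0, 2, 8, 10, 12, 14 and 20 h, and 2 embryos of 4 h, 3 of 6 h, 8 of 16 h, 9 of 18 h, 10 of 22 h, 6 of 24 h and 8 of 36 h. By the labels the 0 to 36 h embryos were processed as 1 cohort, so batch and stage cannot be told apart in any comparison with oocytes or morulae.

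Tdpoz genes encode proteins with a TRAF-like (MATH) domain and a BTB/POZ domain, the layout of SPOP, which brings substrates to the CUL3 ubiquitin ligase. Usp17l genes, also known as DUB genes, encode deubiquitinases, enzymes that take ubiquitin off proteins. Both families lie in clusters of recent duplicates and are known among the transcripts of the mouse 2-cell embryo, together with the Zscan4 genes and the endogenous retrovirus MERVL, whose internal part is annotated as MERVL-int and whose long terminal repeat is annotated as MT2_Mm.

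In GENCODE M21 (GRCm38) the 5 Tdpoz genes lie on chromosome 3 between 93651542 and 93961314, a stretch of 309.8 kb. The 5 Usp17l genes lie on chromosome 7 between 103249737 and 104862667, a stretch of 1613 kb. Tdpoz2, Tdpoz3, Tdpoz4 and Tdpoz5 are annotated with 1 exon, Tdpoz1, Usp17lb, Usp17lc and Usp17ld with at most 2, Usp17la with 3 and Usp17le with at most 4. Coding sequences were 78.8% to 88.4% identical between Tdpoz members and 90.7% to 98.4% identical between Usp17l members, the closest pair being Usp17lc and Usp17ld.

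RefSeq start sites were at hand for 7 of the 10 members. The 250 bases before the annotated start are printed below for the 4 Usp17l genes, to show what their upstream sequence shares. Those of Tdpoz1 and Tdpoz5, the Tdpoz members with the most counts, are printed after them. Capitals mark the TATA box in the form TATAAA or in the variant form TATATAA, and the CCAAT box, read on either strand, so that ATTGG stands for a CCAAT box on the other strand.
Usp17la (GRCm38.p6, chr7:104856766-104857015, plus strand): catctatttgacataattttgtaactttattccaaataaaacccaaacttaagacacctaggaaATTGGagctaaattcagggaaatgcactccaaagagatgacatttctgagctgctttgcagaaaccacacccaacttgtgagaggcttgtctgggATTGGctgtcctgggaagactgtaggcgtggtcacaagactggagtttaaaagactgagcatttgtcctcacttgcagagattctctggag
Usp17lb (GRCm38.p6, chr7:104842584-104842833, minus strand): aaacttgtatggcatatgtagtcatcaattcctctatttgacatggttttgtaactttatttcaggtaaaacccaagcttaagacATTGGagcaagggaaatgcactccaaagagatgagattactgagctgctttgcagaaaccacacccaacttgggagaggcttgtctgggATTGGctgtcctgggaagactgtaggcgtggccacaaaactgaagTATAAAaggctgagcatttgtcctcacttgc
Usp17lc (GRCm38.p6, chr7:103416446-103416695, plus strand): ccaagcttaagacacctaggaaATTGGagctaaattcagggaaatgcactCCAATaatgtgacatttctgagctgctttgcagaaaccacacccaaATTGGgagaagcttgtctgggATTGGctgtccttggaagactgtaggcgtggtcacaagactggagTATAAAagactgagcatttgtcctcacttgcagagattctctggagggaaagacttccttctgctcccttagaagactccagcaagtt
Usp17ld (GRCm38.p6, chr7:103252506-103252755, minus strand): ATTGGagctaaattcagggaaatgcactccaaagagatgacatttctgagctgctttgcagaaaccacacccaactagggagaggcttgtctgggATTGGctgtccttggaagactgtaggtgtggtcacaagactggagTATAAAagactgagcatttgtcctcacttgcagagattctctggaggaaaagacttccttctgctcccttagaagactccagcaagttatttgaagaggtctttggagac
Tdpoz1 (GRCm38.p6, chr3:93676284-93676533, minus strand): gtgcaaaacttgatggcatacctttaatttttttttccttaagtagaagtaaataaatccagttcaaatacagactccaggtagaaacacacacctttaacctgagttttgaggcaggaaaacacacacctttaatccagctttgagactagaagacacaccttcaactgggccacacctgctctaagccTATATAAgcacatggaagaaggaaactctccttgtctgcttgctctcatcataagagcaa
Tdpoz5 (GRCm38.p6, chr3:93961315-93961564, minus strand): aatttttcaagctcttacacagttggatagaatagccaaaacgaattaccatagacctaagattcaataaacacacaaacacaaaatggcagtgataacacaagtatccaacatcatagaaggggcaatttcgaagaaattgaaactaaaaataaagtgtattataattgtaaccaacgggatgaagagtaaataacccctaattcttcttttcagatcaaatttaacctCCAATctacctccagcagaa

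The longest run of bases that all 4 Usp17l windows share exactly is 29 bases, ctgagctgctttgcagaaaccacacccaa, which holds the letters CACCC, and in each of the 4 an ATTGG begins 28 bases after the start of that box. The letters TATAAA were found upstream of Usp17lb, Usp17lc and Usp17ld, at 31, 88 and 110 bases before their annotated starts, and not in the Usp17la window. Over windows from 250 bases before to 50 after the start, TATAAA was in 3 of 7 member windows and in 12.31% of 32536 windows of all genes. CCAAT was in 5 of 7 and in 33.81% of all, and CACCC in 4 of 7 and in 52.14% of all. The Tdpoz1 window held TATATAA, present in 3.021% of all windows, 60 bases before its start. The Tdpoz5 window held neither TATA form and had 1 CCAAT. It ends where the annotated model begins, and 1020 of the 1023 bases of that model are coding. Whether this window lies before the start of transcription is therefore not known, and the same goes for the Tdpoz4 window among the 7. The Usp17lc window lies before the RefSeq start but inside the GENCODE model of that gene, which begins at base 103415072. These letters were searched with the sequences in view, on both strands, and a match describes the window without showing that a factor binds there.

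Copies share reads, which limits how far a member can be told apart from other copies. Of all 50-base stretches of the Tdpoz5 transcript, 100% also occur in transcripts of other genes, every one of them in Gm10697. The share was 66.2% for Tdpoz3, 48.3% for Tdpoz2, 44.4% for Tdpoz1 and 41.2% for Tdpoz4. It was 51.1% for Usp17ld and 44.7% for Usp17lc, most of it with each other, and 29.8%, 21.4% and 20.1% for Usp17le, Usp17lb and Usp17la. With other members alone the share was 0.547% (Tdpoz2) to 3.59% (Tdpoz5) for the Tdpoz genes. For the Usp17l genes it was 15.3% (Usp17la) to 50.4% (Usp17ld). Of the 331 member values above 0 in the deposited table, 97 (29.3%) were not whole numbers, beside 28.4% of all gene values above 0. Not whole were 9 of 11 values of Tdpoz4 and 38 of 79 of Usp17lb, but 1 of 27 of Usp17ld.

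Across the series totals ran from 10223 gene counts to 6795040, with a median of 2099014, and the second smallest was 564266. Levels are given as CPM, an embryo's counts of a gene relative to its TMM-scaled total, so each is a share of the embryo's transcripts, and a larger share and a smaller total of other RNA cannot be told apart. Summed markers of the oocyte were at 14261 to 20517 CPM in oocytes and at 22201 to 25904 CPM at 0 h, where 6 of 8 were called higher than in oocytes and none lower. They were at 1547 to 4544 CPM at 36 h. Among the 96 libraries 2 stood apart. The correlation of 10 h replicate 5 with its own group was 0.0708 (median), and it held 24.5 CPM of oocyte markers against 19094 to 23802 CPM in the other 4, 7135 CPM of summed cumulus and granulosa markers, and no count of any member. It enters none of the pairwise comparisons, but it is in the fits of all libraries and of the time course. Morula replicate 4, with the total of 10223, correlated with the other morulae at 0.428 (median) and held 2101 CPM of oocyte markers, against 68.3 to 206.1 CPM in the other 6 morulae. It is in the comparison of morula with 36 h, which is given with and without it.

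From the oocyte to 22 h the members were near 0. Tdpoz2, Tdpoz3 and Tdpoz4 had no count in any of the 8 oocytes or of the 35 embryos from 0 to 14 h. In the 32 embryos from 16 to 22 h Tdpoz2 and Tdpoz3 each had 1 count in 1 embryo and Tdpoz4 had none. Usp17lb was the member seen most often early on, with counts in 7 of 8 oocytes (0.935 ± 0.81 CPM, SD) and in 24 of the 35 embryos from 0 to 14 h (0.99 ± 0.97 CPM). Tdpoz1 and Tdpoz5 had 19 and 22 counts over those 35 embryos, and Usp17ld had 2, both in 1 embryo. Between 16 and 22 h Usp17lb averaged 2.22 ± 3.49 CPM, with counts in 28 of 32 embryos, and Usp17lc 1.44 ± 2.59 CPM, with counts in 18 of 32.

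In the comparison of 12 h with 0 h embryos none of the 10 members passed the filter on low counts, so none was tested, and 39.0% of the 8211 genes tested passed edgeR's quasi-likelihood test at a Benjamini-Hochberg adjusted p of 0.05. The same held for 0 h against the oocyte, where 45.7% of 9556 genes passed. With no filter 6 and 5 members could be tested in the 2 comparisons and none passed, with 0 and 1 at an unadjusted p under 0.05. In these 2 comparisons a change of the members was not detectable at this depth.

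**Figure D1:**
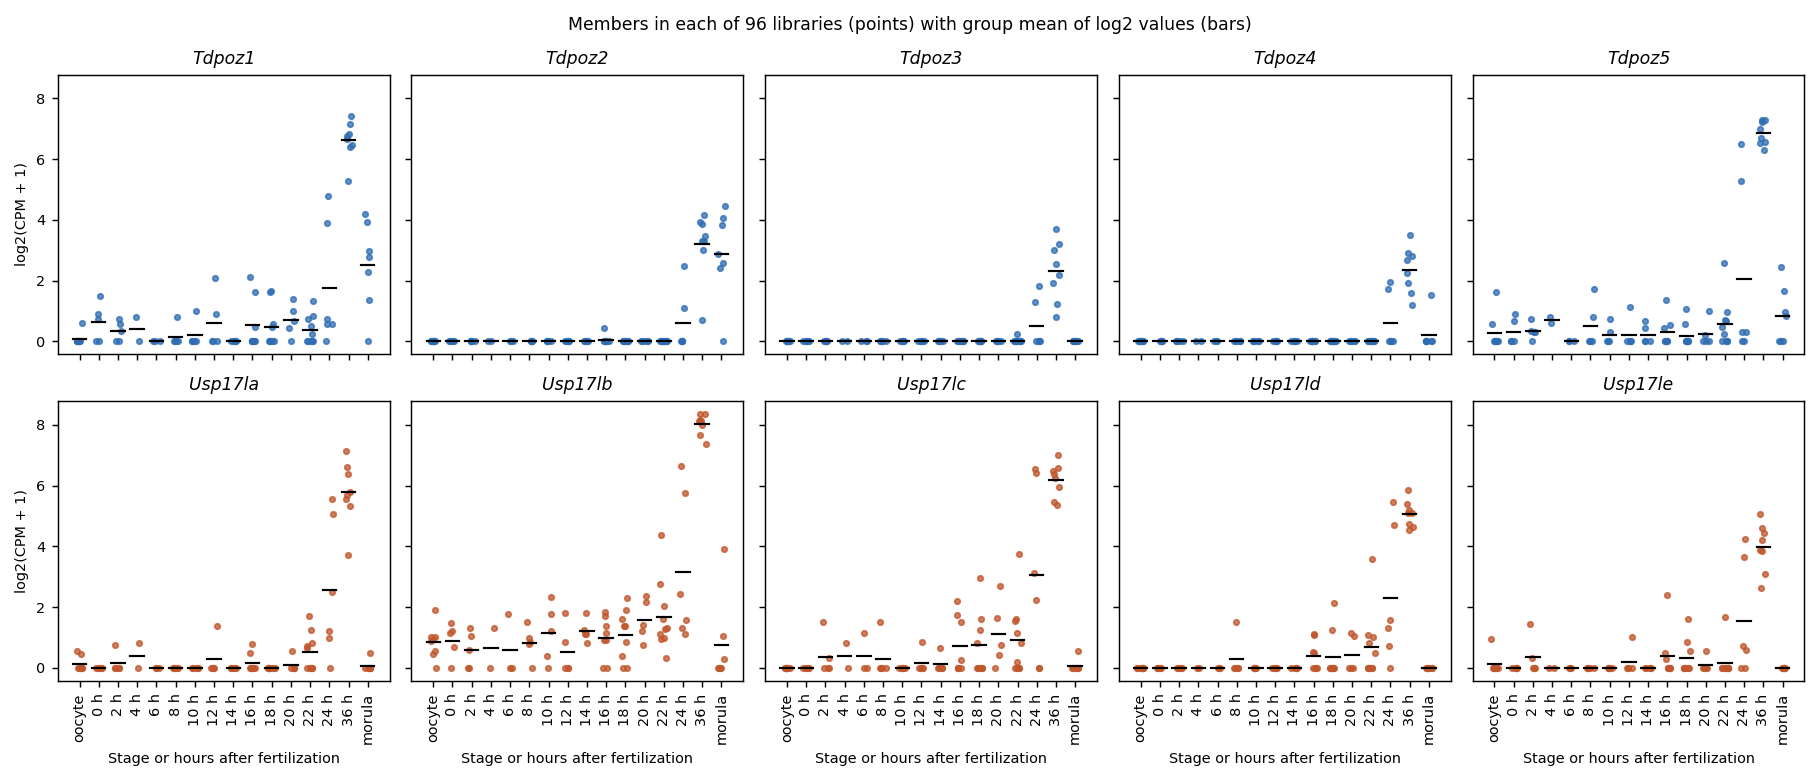
Level of each member in the 96 libraries, as log2(CPM + 1), by stage or hours after fertilization; points are single oocytes or embryos and bars are means of the log2 values. Levels stay near 0 up to 22 h, 2 of 6 embryos are high at 24 h, all 8 at 36 h are high for most members, and in morulae Tdpoz2 and Tdpoz1 have the highest means.

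At 22 h 1 embryo of 10 stood above the rest for 4 Usp17l members and Tdpoz5. Usp17lb reached 19.9 CPM in 22 h replicate 2, against 0.258 to 5.85 CPM in the other 9. In the same embryo Usp17lc was at 12.4 CPM, Usp17ld at 11.01 CPM, Tdpoz5 at 4.92 CPM and Usp17le at 2.16 CPM, each the highest of the group. Tdpoz1, Tdpoz2, Tdpoz3 and Tdpoz4 had no count there. MERVL-int was also highest in that embryo, at 118.9 CPM, with 10.9 to 35.4 CPM in the others. Its total of 4771370 gene counts was the third largest of the group. The embryo's summed level of 19 other genes of the 2-cell program, 882 CPM, was not the highest, with 1050 CPM in replicate 5. At 22 h this sum was led by Sp110 and Arg2, with means of 362 and 249 CPM, and Sp110 was already at 279 CPM in oocytes. The Zscan4 genes had means of 0.345 to 7.07 CPM, so the sum says little about them in this embryo.

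At 24 h the early 2-cell embryos fell into 2 that were high for every member and 4 that were low. Tdpoz5 was at 88.6 CPM in replicate 1 and 37.5 CPM in replicate 4, while the other 4 embryos had 0, 0.248, 0.236 and 0 CPM. Usp17lb was at 53.3 and 99.4 CPM in these same embryos and at 1.47, 4.46, 1.18 and 1.96 CPM in the others. Usp17lc stood at 84.1 and 93.6 CPM, against 3.68, 7.68, 0 and 0 CPM. The embryos were named high or low from these same values, so the gap between them is a description and was not tested.

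Tdpoz1 was at 26.5 CPM in replicate 1 and 13.7 CPM in replicate 4, and at most 0.652 CPM in the others. Usp17la (32.9 and 45.8 CPM), Usp17ld (25.02 and 42.9 CPM) and Usp17le (11.4 and 18.2 CPM) were higher in replicate 4 than in replicate 1, whereas Tdpoz1, Tdpoz2, Tdpoz4 and Tdpoz5 were higher in replicate 1. Tdpoz2 (4.58 and 1.16 CPM), Tdpoz3 (1.43 and 2.51 CPM) and Tdpoz4 (2.86 and 2.32 CPM) had counts in these 2 embryos only. MERVL-int, at 3490 and 2265 CPM in the same 2 embryos, was at 14.3 to 120 CPM in the other 4.

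The 2 high embryos also had the largest totals of the group, 6795040 and 5293129 gene counts, against 1534589 to 4997948 in the rest. The summed level of 19 other genes of the 2-cell program was 3475 and 4283 CPM in them and 607 to 762 CPM in the others. Summed cumulus and granulosa markers were at 17.0 and 22.6 CPM in the high embryos and at 4.72 to 23.5 CPM in the low ones, so these ranges overlapped. Both high embryos, and 22 h replicate 2, had titles without the suffix b, which the labels do not explain. The 24 h embryos with that suffix, replicates 5 and 6, were both low. Summed blood and oviduct markers were at 424 and 82.8 CPM in replicates 5 and 6 and at 2.72 to 30.0 CPM in the other 24 h embryos. The parts of depth and of the title suffix in the difference between embryos were not tested.

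Set against 12 h zygotes, the 24 h group as a whole gave a call that depended on the fit. None of the 10 members passed the filter on low counts in the fit of these 2 groups, in which 13.4% of 11083 genes were called higher at 24 h. With no filter all 10 were tested and none passed after adjustment, with 9 at an unadjusted p under 0.05. In 1 edgeR fit of all 96 libraries, which shares the spread over all groups, 8 of 10 members were called higher at 24 h, beside 10.0% of 18924 genes. There Usp17lb was higher by 5.20 ± 1.07 on the log2 scale (SE, adjusted p = 0.000315, edgeR) and Tdpoz3 and Tdpoz4 did not pass (adjusted p = 0.0704 and 0.087). Pooled over each group, the ratio of 24 h to 12 h was 51.1 for Usp17lb (6 counts at 12 h) and 68.1 for Tdpoz5 (4 counts at 12 h), with 95% counting intervals of 23.4 to 139.7 and 26.5 to 250.6. For Usp17ld, with no count at 12 h, the 24 h level was at least 45.9-fold the floor of 3 counts over the 12 h group. Such intervals and floors cover counting error only, and 2 of the 6 embryos carried nearly all of these counts.

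**Figure D2:**
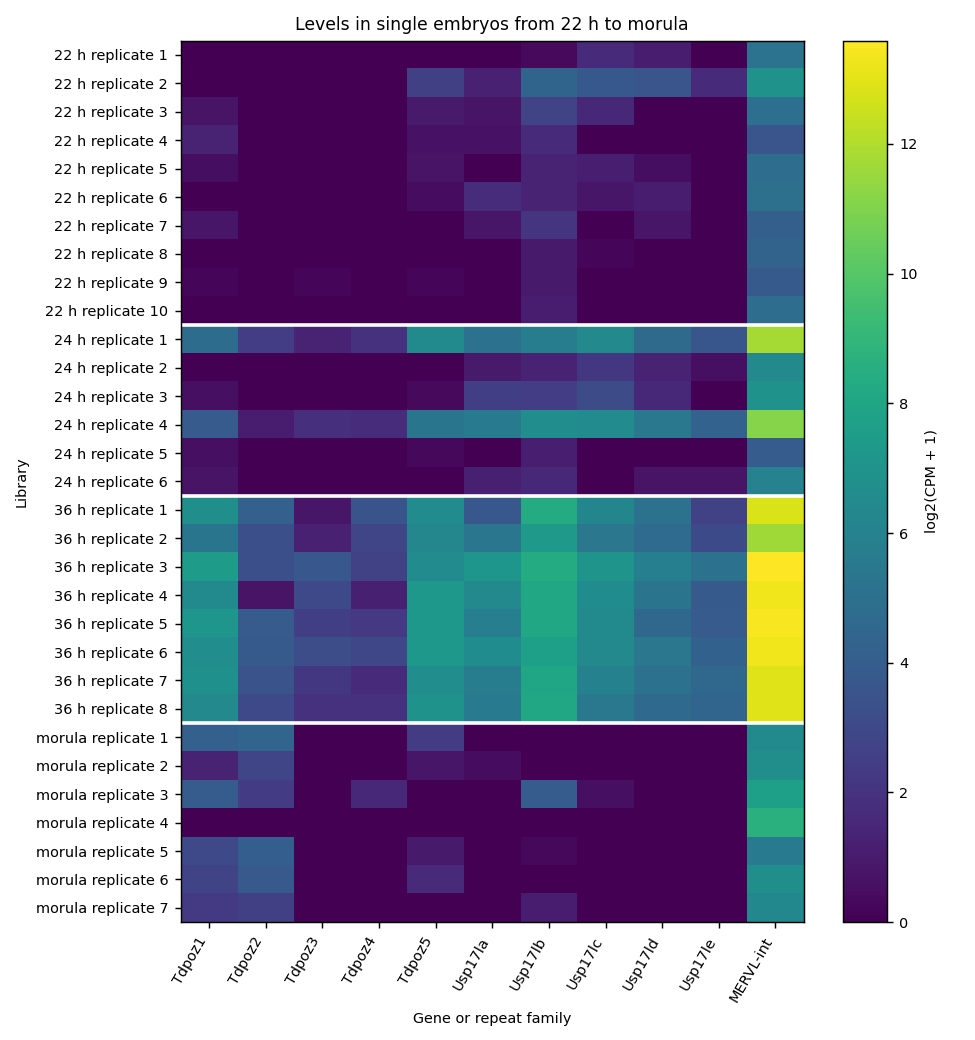
Level of each member and of MERVL-int, as log2(CPM + 1) by colour, in every library at 22 h, 24 h, 36 h and the morula stage, with white lines between groups. Replicate 2 at 22 h and replicates 1 and 4 at 24 h stand apart from the other embryos of their time, and the bright columns at 36 h are darker in morulae. MERVL-int, at 45.4 to 393 CPM, is the brightest column there, and among the members Tdpoz1 and Tdpoz2 have counts in most morulae and Usp17lb reaches 14.3 CPM in replicate 3.

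An onset was given to each member as the first time from which it was at least 2-fold above 0 h with an adjusted p under 0.05 at that and every later time, in 1 edgeR fit of the 81 embryos from 0 to 36 h. It fell at 24 h for Tdpoz1, Tdpoz5 and all 5 Usp17l members, and at 36 h for Tdpoz2, Tdpoz3 and Tdpoz4. At 24 h 11.4% of 18543 genes were called at least 2-fold higher than at 0 h, and at 36 h 31.8% were. At 24 h the adjusted p was 0.0629 for Tdpoz2, 0.0758 for Tdpoz3 and 0.0846 for Tdpoz4, so a later onset of these 3 was a matter of the threshold, and the difference in onset between members was not tested. At 22 h none of the 10 passed, where 6.51% of genes did, and the lowest adjusted p was that of Usp17lc, 0.0941. The titles of some libraries from 16 to 24 h end in b, which the labels do not explain. Leaving them out left 3 embryos at 22 h and none at 20 h, so that time was skipped, and the onset then came at 18 h for Usp17lc and at 22 h for Usp17lb and Usp17ld, and at 24 h for Tdpoz2 and Tdpoz4. Of the embryos left, replicate 2 held 14.6 CPM of summed Usp17l members at 18 h, and the others at most 0.779 CPM. At 22 h replicate 2 held 46.8 CPM, beside 3.35 and 8.45 CPM. The onsets at 18 h and 22 h therefore rest largely on 1 embryo at each time. Without 24 h replicate 1, left out after the values had been seen, the onset of Tdpoz1 moved to 36 h, and without 10 h replicate 5 that of Tdpoz2 moved to 24 h.

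At 36 h all 8 late 2-cell embryos had counts of every member. Usp17lb ranged from 164 to 329 CPM with a median of 280.1 CPM, and Tdpoz5 from 77.8 to 154 CPM. The lowest embryo for Usp17lb, Tdpoz1, Tdpoz5 and Usp17lc was replicate 2, which was also lowest for MERVL-int (3263 CPM, against 7114 to 12338 CPM in the other 7). Its TMM factor was 1.41, in a group range of 0.899 to 1.47, and a large factor lowers all CPM of an embryo together. By library size alone replicate 2 stayed lowest for Tdpoz1, Tdpoz5 and MERVL-int, while replicate 6 was lowest for Usp17lb and replicate 8 for Usp17lc. Usp17la was more spread, from 12.1 to 140.5 CPM. Tdpoz2 was at 0.639 CPM in replicate 4 and at 6.97 to 16.8 CPM in the others.

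Every 36 h embryo was above every 22 h embryo for all 10 members, which held for 5.57% of the 34016 genes with a count in either group. Pooled over each group, the 36 h level of Usp17lb was 392 times that at 12 h (95% counting interval 180 to 1068) and that of Tdpoz5 252 times (98.1 to 924). Tdpoz2, Tdpoz3 and Tdpoz4, at 0 in the 12 h group, were at least 29.7-fold, 13.9-fold and 15.1-fold higher at 36 h than the floor of 3 counts over that group.

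Per kb of gene model the order at 36 h was led by Usp17lb (170 ± 36.5 CPM per kb, SD, n = 8), followed by Tdpoz5 (116.1 ± 30.4) and Tdpoz1 (44.7 ± 16.9). Usp17lc (31.4 ± 11.7 CPM per kb), Usp17la (24.6 ± 15.04) and Usp17ld (17.1 ± 5.76) came next. Tdpoz2 (8.73 ± 4.37 CPM per kb), Usp17le (8.47 ± 4.50), Tdpoz3 (4.62 ± 3.47) and Tdpoz4 (4.29 ± 2.65) were lowest. Of neighbours in this order, Tdpoz5 and Tdpoz1 alone were further apart than the sum of their SDs. The models of Tdpoz3, Tdpoz4 and Tdpoz5 hold little beyond the coding sequence, so reads from untranslated ends would not be counted for them.

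**Figure D3:**
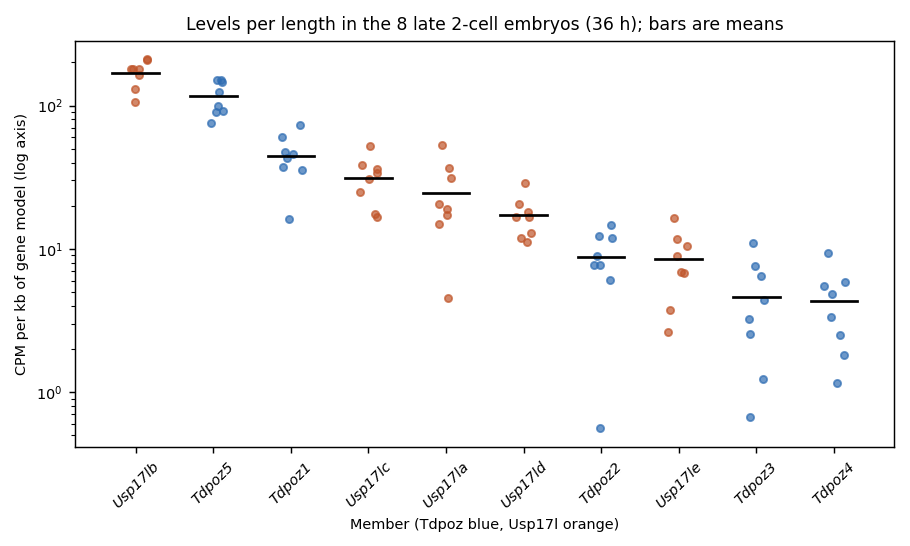
Level per kb of gene model of each member in the 8 embryos at 36 h, on a log axis; points are embryos and bars are means, with members ordered by mean. Usp17lb and Tdpoz5 lead, and the means span from 170 to 4.29 CPM per kb.

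From 24 h to 36 h Tdpoz1, Tdpoz2 and Usp17lb rose past the test. Tdpoz1 was higher by 3.91 ± 0.94 on the log2 scale (SE, adjusted p = 0.00292, edgeR), Usp17lb by 3.35 ± 0.91 (adjusted p = 0.00641) and Tdpoz2 by 3.20 ± 0.92 (adjusted p = 0.00742). These 3 were of 8 members tested, Tdpoz3 and Tdpoz4 not having passed the filter, and 29.1% of 12636 genes tested were called higher. Most embryos at 24 h had few counts of the members, so members passed the filter through the 36 h group, which favours a call of higher. The other 5 were estimated higher by 1.35 (Usp17lc, adjusted p = 0.25) to 2.53 (Tdpoz5, adjusted p = 0.0692) without passing. Over the 20 alternatives the change of Tdpoz1 ran from 3.37 to 5.02 (highest adjusted p = 0.0181), that of Usp17lb from 2.77 to 4.39 (0.031) and that of Tdpoz2 from 2.72 to 5.00 (0.0335). All 3 were lowest without titles ending in b, Tdpoz1 and Tdpoz2 were highest without 24 h replicate 1, and Usp17lb was highest without 24 h replicate 4. For Tdpoz1 and Usp17lb alone every 36 h embryo was above every 24 h embryo, 2 of 10 members, beside 4.51% of 33631 genes. Without 24 h replicate 1, the embryo with the most Tdpoz5, 6 members were called and without replicate 4, 7 were. These 2 embryos hold the highest 24 h values of the members, so leaving out either lowers the 24 h level by construction. The share of all genes called in these refits is not given here. DESeq2 called 7 of 8, beside 33.0% of genes, and the fit of all 96 libraries 6 of 10, beside 28.0%. Cumulus and granulosa markers also differed between these groups, their sum ranging from 4.72 to 23.5 CPM at 24 h and from 11.9 to 1026 CPM at 36 h, with 3 of 3 tested called higher and Amh at 0 in both groups. Their part in the result was not tested.

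Within each family the proportions of members were not the same in the high 24 h embryos and in those at 36 h. The ratio of Usp17lb to Usp17lc counts was 0.634 and 1.06 in 24 h replicates 1 and 4, with 373 against 588 and 514 against 484 counts. At 36 h it lay between 2.43 and 6.55 in all 8 embryos, so these ranges did not overlap. The ratio of Tdpoz1 to Tdpoz5 counts was 0.298 and 0.366 in the same 2 embryos at 24 h and between 0.491 and 1.86 at 36 h. The ratio of Tdpoz2 to Tdpoz1 was 0.173 and 0.0845 at 24 h and 0.00735 to 0.23 at 36 h, an overlap. These ratios were picked after the values had been seen and were not tested.

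In morulae Tdpoz2 was at about its 36 h level, and the other members were lower or had no count. Tdpoz2 was at 20.9, 6.27, 4.28, 0, 15.5, 13.1 and 4.99 CPM in morula replicates 1 to 7, against a median of 9.52 CPM at 36 h. The 1 morula without a count was replicate 4, with the smallest total of the series. The fitted change of Tdpoz2 was 0.19 ± 0.52 on the log2 scale (adjusted p = 0.756, edgeR), and its sign turned with DESeq2 (-0.13) and with library size alone (-0.01). Without morula replicate 4 it was 0.33 (adjusted p = 0.585). Missing the threshold does not show equal levels. Pooled, 36 h held 0.914 of the morula level, with a 95% counting interval of 0.744 to 1.12.

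Tdpoz1 fell by 3.58 on the log2 scale (SE 0.45, adjusted p = 1.93e-07, edgeR), to 7.11 ± 6.43 CPM (SD, n = 7), with a highest morula of 17.3 CPM and a lowest 36 h embryo of 38.2 CPM. Tdpoz5 fell by 6.35 (SE 0.55, adjusted p = 6.27e-10), to 1.19 ± 1.63 CPM. All 5 Usp17l members also fell, so that 7 of the 8 members tested were called lower, beside 43.5% of 11216 genes, whose median change was -0.55. Usp17la, Usp17lc, Usp17ld and Usp17le had at most 1 count each in morulae, so they passed the filter through the 36 h group. For them a call could only be lower, so the number of members called is a description and lends no support. The median of all genes lay at -0.78 with library size alone and at -0.86 with DESeq2, and the same 7 members were called in both and without morula replicate 4. The share of all genes called in these alternatives is not given here. The change of Usp17lb, -6.64, depended on 1 morula and on the tool. Replicate 3 held 30 of its 34 counts in morulae, and without it the change was -9.45, whereas DESeq2 gave -3.76 (adjusted p = 0.0109, the highest over the 20 alternatives). The change of Tdpoz5 ran from -7.18 to -6.02. Usp17ld and Usp17le had no count in any morula and were at least 176.8-fold and 79.1-fold lower than at 36 h, by the floor of 3 counts over the group. Usp17la and Usp17lc had 1 count each in the 7 morulae, and the ratio of 36 h to morula was 957 (171 to 37829) and 1224 (219 to 48393). Tdpoz3, not tested, had no count in morulae, at least 24.8-fold lower, and Tdpoz4 had 4 counts in 1 morula. Among the members the ranges of morulae and 36 h embryos overlapped for Tdpoz2 and for Tdpoz4. The share of all genes without such an overlap is not given here, so no weight is put on this count.

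Tdpoz2 outnumbered Tdpoz1 in most morulae. The ratio of Tdpoz2 to Tdpoz1 counts was 1.21, 4.00, 0.3, 2.24, 2.25 and 1.27 in the 6 morulae with counts, each above the highest ratio of any 36 h embryo, 0.23. Tdpoz2 shares 38.7% of its 50-base stretches with Gm5773 and 37.8% with Gm9141. These 2 copies averaged 0.597 ± 0.45 and 0.164 ± 0.205 CPM in morulae and 3.02 ± 2.01 and 0.331 ± 0.426 CPM at 36 h, lower at both stages than Tdpoz2.

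**Figure D4:**
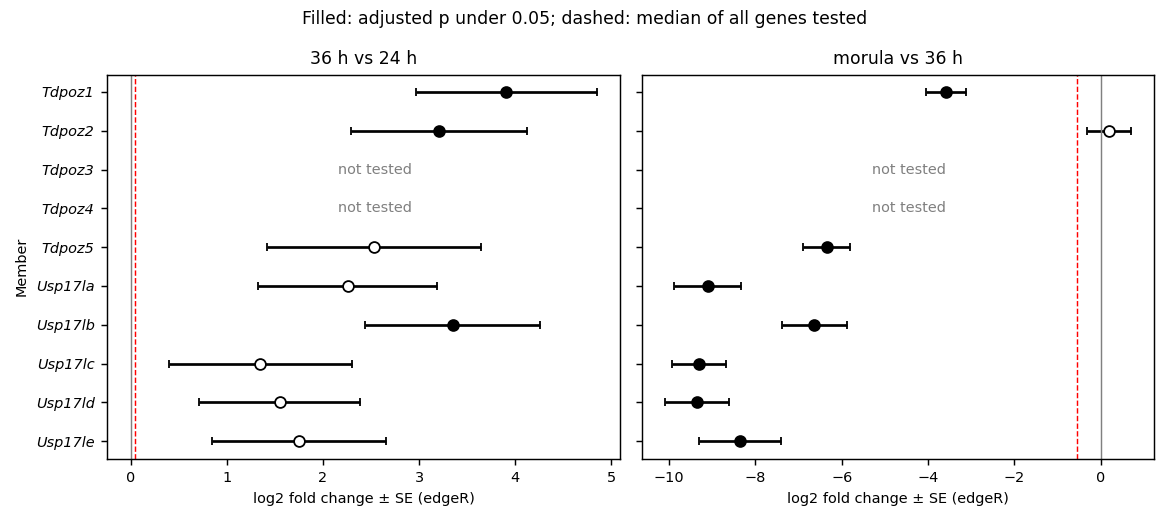
Log2 fold change of each member with its SE from edgeR's pairwise fits, 36 h against 24 h on the left and morula against 36 h on the right; filled points have an adjusted p under 0.05 and the dashed line is the median of all genes tested. From 36 h to morula Tdpoz2 stays at 0.19 while Tdpoz1 lies at -3.58 and the Usp17l members between -6.64 and -9.35, where fits of members with 0 or 1 count in morulae depend on the prior count.

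Other gene copies that share sequence with the Tdpoz members were also highest at 36 h; their changes are given as levels, with no test. Gm9125, which shares 40.1% of the 50-base stretches of Tdpoz1, was at 9.59 ± 15.3 CPM at 24 h (SD, n = 6), 154 ± 52.3 CPM at 36 h (n = 8) and 0.223 ± 0.298 CPM in morulae (n = 7). Gm5543, with 33.9% of those of Tdpoz5, was at 12.7 ± 19.5, 119.4 ± 42.4 and 0.519 ± 0.77 CPM at these stages. Gm10697, whose transcript holds all of Tdpoz5, was at 2.74 ± 1.04 CPM at 36 h, beside 118.7 ± 31.1 CPM for Tdpoz5. How reads common to both were given out is not stated in the sources used here, so the split between them is uncertain. Gm37596, with 63.4% of the stretches of Tdpoz5, was at 18.5 ± 3.91 CPM at 36 h and at 4.36 ± 2.77 CPM in morulae.

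MERVL-int and the most abundant member of each family were compared across embryos of 1 age, on log2(CPM + 1), in 9 relations. At 22 h Tdpoz5 and Usp17lb had a Pearson r of 0.896 over 10 embryos (permutation p = 0.00388, adjusted over the 9 relations 0.0349) and a Spearman rho of 0.7 (permutation p = 0.0303, adjusted 0.15). Without replicates 2 and 3, the farthest from the median, r was 0.311, so the relation does not hold without both. Without replicate 2 alone r was 0.636 (exact permutation, adjusted p = 0.111) and without replicate 3 alone it was 0.900 (adjusted p = 0.0754). Within the 7 embryos whose titles end in b r was 0.108. Tdpoz5 and Usp17lb had an r of 0.732 and 0.626 with MERVL-int at 22 h (permutation p = 0.0464 and 0.0719, adjusted 0.0813 and 0.0903; rho 0.325 and 0.152), which became -0.187 and -0.496 without the 2 farthest embryos and -0.0298 and -0.256 among titles in b. At 24 h the embryos formed separate clusters of 2 and 4, too few for a relation within either. The 3 relations at 24 h are among the 9, and Usp17lb with MERVL-int passed over the pooled 6 (exact permutation, adjusted p = 0.0438), which is not counted as a relation since it joins the 2 clusters. At 36 h r was 0.136 between Tdpoz5 and Usp17lb (exact permutation p = 0.739), 0.646 between Tdpoz5 and MERVL-int (exact p = 0.0542) and 0.657 between Usp17lb and MERVL-int (exact p = 0.0803), with rho of -0.0714, 0.476 and 0.19, and none passed after adjustment (0.739, 0.0813 and 0.0903). Without the 2 farthest of the 8 embryos these were -0.703, 0.2 and 0.132.

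**Figure D5:**
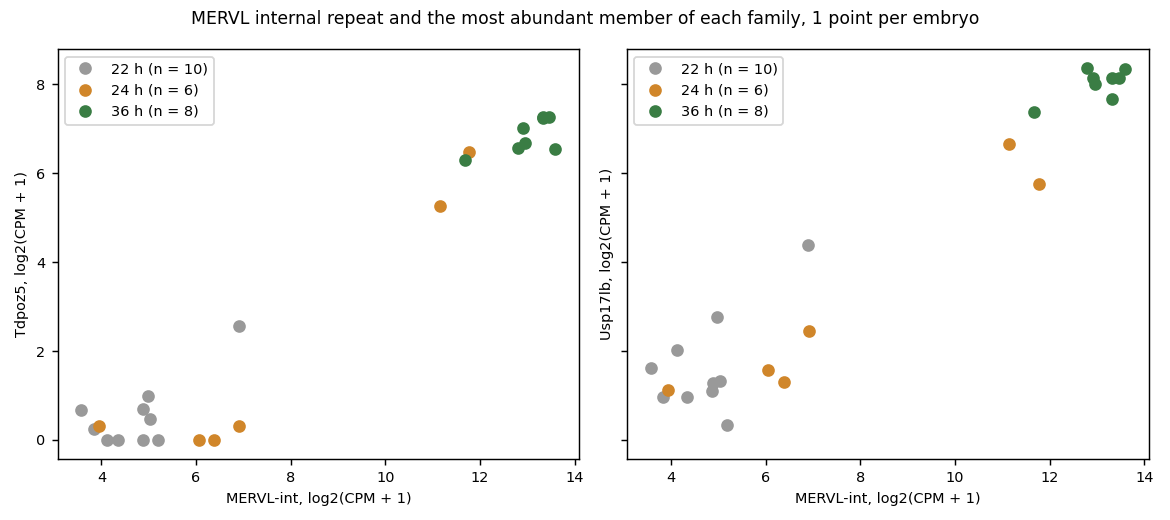
MERVL-int (horizontal) against Tdpoz5 (left) and Usp17lb (right), both as log2(CPM + 1), with 1 point per embryo and colour for 22 h, 24 h and 36 h. The 2 high embryos at 24 h lie toward those at 36 h, below all of them for Usp17lb. The 4 others lie near the 22 h embryos, some with more MERVL-int than most of these.

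Other genes of the early 2-cell program, a list of 20 of which 19 were matched, were compared at the same times. Between 12 h and 24 h 4 of the 7 tested were called higher and none lower, beside 13.4% and 8.23% of all genes tested, with a list median of 2.87 on the log2 scale beside 0.05 over all genes tested. Those with the lowest adjusted p were Arg2, an arginase (2.87 ± 0.65, adjusted p = 0.00701, edgeR), Gm4340 (6.89 ± 1.71, adjusted p = 0.0121) and Zscan4d, which encodes a SCAN-domain zinc finger protein (6.35 ± 1.65, adjusted p = 0.0146). From 24 h to 36 h 2 of 19 were called higher, a smaller share than the 29.1% of all genes, and from 36 h to morula 17 of 18 were called lower, beside 43.5% of all. Every Usp17l member was also called lower in morulae, and the limit of the filter given above holds for both counts.

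Genes of the ubiquitin system with which the 2 families are linked by their domains were called in both directions. Of 16 genes of the CUL3 ligase and its regulators tested between 12 h and 24 h, 2 were higher and 3 lower, beside 13.4% and 8.23% of all genes. Cul3, the scaffold of the ligase, fell by 1.48 (SE 0.39, adjusted p = 0.0148, edgeR), whereas Nedd8, the modifier that activates cullins, rose by 1.46 ± 0.40 (adjusted p = 0.0188) and Cand1, an exchange factor of cullin ligases, by 0.90 ± 0.25 (adjusted p = 0.0209). From 24 h to 36 h Cul3 turned and rose by 3.93 ± 0.35 (adjusted p = 5.17e-07, edgeR), the lowest adjusted p of the list, while Nedd8 (-0.02, adjusted p = 0.943) and Cand1 (-0.53, adjusted p = 0.0518) did not pass. Of 17 tested then, 2 were higher and 7 lower, beside 29.1% and 23.2% of all genes tested. In morula against 36 h 6 of 17 were higher and 10 lower, beside 28.2% and 43.5%. Of 34 other deubiquitinases of the USP family 2 were higher and 4 lower between 12 h and 24 h, beside the same shares of all genes as above, led by Usp42 (fell by 1.58, SE 0.38, adjusted p = 0.00991), Usp37 (fell by 1.13, SE 0.28, adjusted p = 0.0113) and Usp4 (rose by 1.42 ± 0.41, adjusted p = 0.024). Usp42 rose from 24 h to 36 h by 0.95 ± 0.37 (adjusted p = 0.0381) and Usp4 fell by 1.47 (SE 0.37, adjusted p = 0.00328), both against their earlier direction, and Usp37 did not pass (0.49, adjusted p = 0.165). The counts were 7 higher and 11 lower of 37 at 36 h against 24 h, and 4 higher and 22 lower of 37 in morula against 36 h.

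By group means of log2(CPM + 1) over the 16 groups, the genes most like Tdpoz5 among 15555 compared were Gm22468 (r = 0.995), Gm9045, Gm48754, A930014E10Rik and Obox4-ps35 (r = 0.994). Those most like Usp17lb were Gm6999 (r = 0.993), Obox4-ps9, Gm9046, Gm40910 and Gm13867 (r = 0.988). All 10 had their highest mean at 36 h. Over the same groups members were also alike, with r from 0.952 to 0.995 among Tdpoz3, Tdpoz4, Tdpoz5 and the Usp17l genes, and Tdpoz2 was the least like the rest, with r from 0.64 (Usp17lc) to 0.901 (Tdpoz1). These correlations describe 16 means that share the 36 h peak.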

How the data were processed

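RNA of 96 single oocytes and embryos was analysed in the 16 groups given by the labels. The authors deposited 1 table of expected counts for 55401 genes and 873 repeat families, not normalised, per the file headers and values. Reads were handled with Trimmomatic 0.39, STAR and featureCounts on mm10, per the submitters' processing notes; the annotation release, strand setting and treatment of reads that fit several copies are not given in the sources used here. The expected counts were rounded to whole numbers. Symbols and models come from GENCODE M21 and promoter windows from RefSeq (GRCm38.p6).

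CPM were computed from the gene counts with TMM factors over all 96 libraries, with repeats on the same scale. Groups were compared with edgeR 4.0.16 in R 4.3.3 (quasi-likelihood test, filterByExpr, TMM, only the 2 groups in the fit), two-sided, with Benjamini-Hochberg adjustment over all genes tested and a threshold of 0.05. The SE is the log2 fold change divided by the square root of F. The scripts were tested on simulated data. DESeq2 1.42.0, library size alone, no filter, 1 fit of all libraries, a replicate block and leaving out single libraries were alternatives. Relations used permutation tests, exact under 10 embryos and with 100000 resamples otherwise. Named genes were the members, the 5 genes most like the leading member of each family and, of each other list, the 3 genes with the lowest adjusted p between 12 h and 24 h. Members and lists were chosen with earlier results of these data known.

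The labels do not say which embryos came from the same female, so p-values measure the spread between these embryos. cDNA was primed on poly(A), so longer tails and more transcripts cannot be told apart. Amplified reads carry no molecular identifiers.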

Additional observations from a re-analysis of the deposited data

Results flagged for a closer look

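Single embryos stood far above the rest of their group in 5 of 32 member and group pairs with a mean of at least 1 CPM, by a gap test that chance alone passes in about 1 of 20 groups. In 22 h replicate 2 Usp17lb was at 19.9 CPM (next 5.85), Usp17lc at 12.4 CPM (next 2.06) and Usp17ld at 11.01 CPM (next 1.13), so 3 of the 5 come from 1 embryo and from genes that share sequence. In 18 h replicate 2 Usp17lc was at 6.81 CPM (next 2.07). In morula replicate 3 Usp17lb was at 14.3 CPM, from 30 counts, with the next morula at 1.07 CPM.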

How the results depend on the processing

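The members called in 24 h against 12 h, 0 in the 2-group fit where none was tested, were 8 in 1 fit of all 96 libraries and 1 (Usp17lc) without titles ending in b, and 0 to 1 when each library was left out; leaving out 12 h replicate 1, 2, 4 or 5 let Usp17lc pass the filter and the test. The members called in 36 h against 24 h, 3 in the 2-group fit, were 7 with DESeq2, 6 in 1 fit of all libraries and 3 to 7 when each library was left out, with 6 without 24 h replicate 1 and 7 without replicate 4. Those 2 replicates hold the highest member values at 24 h. In that comparison 147 of 160 values for single members kept their direction and side of the threshold and 13 newly passed. In morula against 36 h 9 members were called without the filter and in 1 fit of all libraries, and 7 in every other alternative. Beside the 8 members of the fit of all libraries at 24 h against 12 h, 10.0% of all genes were called higher. Beside the 7 with DESeq2 and the 6 of the fit of all libraries at 36 h against 24 h, 33.0% and 28.0% were. For the other alternatives the share of all genes is not given, so no weight is put on their counts. Tdpoz2 there changed sign, without passing, with DESeq2 (-0.131), with library size alone (-0.00594) and, in a range of -0.0630 to 0.389 with 1 library left out, without morula replicate 1. No member was called in 12 h against 0 h or 0 h against oocyte under any alternative run. The number of members with an onset by 24 h, 7, was 9 without titles ending in b, where 20 h has no embryo, and 6 to 8 without 24 h replicate 1, 24 h replicate 4 or 10 h replicate 5, which were chosen after seeing the data. Of 9 relations 2 passed, 1 of them pooled over the 2 clusters at 24 h; leaving out 1 embryo gave 0 to 4, with 0 without 22 h replicate 2 or 3, 1 without any 1 of the 24 h embryos and 4 without 36 h replicate 3. With 1 embryo left out, the r of Usp17lb with MERVL-int ran from -0.105 (without replicate 2) to 0.765 at 22 h and from -0.0859 to 0.840 at 36 h, and that of Tdpoz5 with Usp17lb from -0.615 to 0.388 at 36 h, both lowest without 36 h replicate 2. The cause of these changes was not tested. Title numbers shared between groups did not pair the samples: over 25 pairs the correlation of deviations ran from -0.189 to 0.166 and 5 were highest with their own number. With the number as a replicate block 0, 3 and 7 members were called in 24 h against 12 h, 36 h against 24 h and morula against 36 h, as without it. Levels under 3 counts over a group, as for Tdpoz2, Tdpoz3 and Tdpoz4 before 24 h, could not be told from 0.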
